A study of Mus musculus with 6 samples.

Results

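The neurotrophins are a small family of secreted growth factors, and 7 genes around them were followed in the juvenile mouse cerebellum: the ligands Ntf3, Bdnf and Ntf5, the receptors Ntrk2, Ntrk3 and Ngfr, and the secreted protein Vgf, whose gene is induced by neurotrophins. The members were chosen as all probes that the platform annotation assigns to these symbols. It assigned 19 of the 45281 probes to 6 of the 7 genes, among 19057 genes named on the array. No probe carried the name Ntf3, so Ntf3 was not analysed here.

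Total RNA of the whole cerebellum was read on Illumina bead arrays from 3 Sp4 hypomorphs, with the genotype Sp4neo-/- in the labels, and from 3 wild-type littermates, labelled WT. All 6 animals were males of a Black Swiss X CD1 background at postnatal day 21, and none had a further allele or treatment in the labels. A hypomorphic allele lowers the amount or function of a product, and how this allele was built was not used here. In whole tissue, fewer cells of a type and less RNA per cell cannot be told apart, and the precision of every value rests on 3 arrays per group.

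Neurotrophins are made as precursors and cut by proteases into mature ligands. Brain-derived neurotrophic factor (Bdnf) and neurotrophin 4/5 (Ntf5) activate the tyrosine kinase receptor TrkB, the product of Ntrk2, and neurotrophin 3 (Ntf3) activates TrkC, the product of Ntrk3. The p75 receptor (Ngfr) binds all of them and prefers their precursors. In the cerebellum Trk signalling acts on the survival, migration and dendrites of granule neurons, and earlier work linked the transcription factor Sp4 to Ntf3 in dendrite patterning.

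Sp4 belongs to the Sp family, which binds GC boxes, short GC-rich promoter elements. RefSeq promoter windows of the 250 bases before a start site (build GRCm38.p6) matched 4 of the 7 genes, with 7 windows for Bdnf, 2 for Ntf3 and 1 each for Ngfr and Ntrk2. The letters GGGCGG, searched on both strands, were in 5 of these 11 windows (45.5%), against 32.7% of all 32851 windows. Ngfr held 4 matches, the highest number among the 11, where 8.47% of all windows held 3 or more. Both Ntf3 windows held 1 match, 2 of the 7 Bdnf windows held 1 or 2, and the Ntrk2 window held none. The GC content was 70.4% for Ngfr, 54.0% and 62.0% for Ntf3, 62.8% for Ntrk2 and 39.2% to 59.6% for Bdnf. The median over all windows was 52.4%. The 11 windows come from 4 genes, and the shares were not compared at matched GC content. The windows with the most matches in Ngfr and Bdnf and the outer one of Ntf3 are printed because they are where a GC-box factor would be looked for first. Capitals mark GGGCGG or its reverse complement, and each window is printed 5′ to 3′ in the direction of the gene. A match describes the letters only and shows no binding.
Ngfr, minus strand, chr11:95587699-95587948: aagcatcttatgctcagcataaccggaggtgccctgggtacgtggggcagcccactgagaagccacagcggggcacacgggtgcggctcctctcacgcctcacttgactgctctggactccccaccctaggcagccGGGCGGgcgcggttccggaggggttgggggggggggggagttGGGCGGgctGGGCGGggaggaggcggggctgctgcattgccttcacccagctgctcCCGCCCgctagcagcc
Bdnf, plus strand, chr2:109676782-109677031: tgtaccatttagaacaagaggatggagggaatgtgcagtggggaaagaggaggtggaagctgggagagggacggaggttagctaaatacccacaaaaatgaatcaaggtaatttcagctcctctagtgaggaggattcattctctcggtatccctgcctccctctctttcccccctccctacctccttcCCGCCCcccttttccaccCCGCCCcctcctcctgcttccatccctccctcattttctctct
Ntf3, minus strand, chr6:126166745-126166994: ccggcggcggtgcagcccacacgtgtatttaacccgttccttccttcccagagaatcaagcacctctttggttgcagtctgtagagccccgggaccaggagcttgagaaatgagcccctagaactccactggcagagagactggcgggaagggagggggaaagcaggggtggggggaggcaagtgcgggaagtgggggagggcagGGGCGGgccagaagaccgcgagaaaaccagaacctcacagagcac

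The arrays separated the genotypes by Sp4 itself. On probe ILMN_1259753 the normalized log2 intensity of Sp4 was 5.99, 5.80 and 6.32 in hypomorphs 1, 2 and 3, against 7.82, 6.86 and 7.35 in wild types 1, 2 and 3. The groups did not overlap, and the log2 difference, hypomorph minus wild type, was -1.30 (SE 0.26). In limma it did not pass once p-values were adjusted across the tested probes by the Benjamini-Hochberg method (unadjusted p = 0.00136, adjusted p = 0.355). The other Sp4 probe, ILMN_1253376, entered the test through its wild-type arrays alone and did not pass after adjustment (limma adjusted p = 0.354). It was above background on 0 of 3 hypomorph and 3 of 3 wild-type arrays, and the hypomorph was at least 1.5-fold lower. Such a bound sets the brighter group's mean against the lowest signal above background, or the probe's own signal where that is higher, on each array of the dimmer group.

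A probe counted as above background on an array at a detection p under 0.05, which 41.2% to 44.5% of all probes reached on each array. The test covered the 19515 probes that reached this on 3 or more arrays. None of them reached an adjusted p under 0.05 in limma (0%), while 5.31% had an unadjusted p under 0.05 and 10.5% had groups that did not overlap. Counts after adjustment ran up to 13 probes in other processings, none of them a probe of these 7 genes. Of the marker lists, 7 of 8 granule cell, 3 of 8 Purkinje cell and 9 of 9 Bergmann glia and astrocyte markers were tested. So were 6 of 9 genes listed for neighbouring brain regions, a list not limited to genes absent from the cerebellum. Its tested genes, named after their values were seen, differed widely in wild-type mean. En2, Slc17a6 and Otx2 stood at 13.16, 11.38 and 9.52, and Tph2, Th and Hoxb5 at 6.50, 6.18 and 5.67. The counts of tested markers therefore do not check the tissue label. No gene of the granule cell, Purkinje cell or Bergmann glia and astrocyte lists had an unadjusted p under 0.05. Over all 9 marker lists 1 gene did, Lgi2 of the interneuron and Golgi cell list, named after its value was seen (log2 difference 0.47, limma unadjusted p = 0.0441, adjusted p = 0.921). All 7 tested oligodendrocyte markers had lower values in the hypomorph, with a median of -0.20, and their summed levels were 106612 to 127458 in hypomorphs and 120102 to 138226 in wild types (linear normalized intensity). The part of these cell types in the neurotrophin and receptor values was not tested.

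Of the 19 probes of the 6 genes, 9 probes of 5 genes were tested. The remaining 10 were too dim: 7 were above background on no array, 2 on 1 array and 1 on 2 arrays. Among the tested probes 0 of 9 passed after adjustment, 0 of 9 had an unadjusted p under 0.05 in limma and 0 of 9 had groups that did not overlap. Mean values were higher in the hypomorph on 7 probes and lower on 2, where 50.2% of all tested probes were higher. The log2 differences lay between -0.15 and 0.28 with a median of 0.08, beside a median of 0.00089 over all tested probes. The 95% intervals together spanned -0.75 to 0.85, so for the least precise probe a difference of that size lies within the interval. The lowest unadjusted p was 0.233 and every adjusted p was 0.999.

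**Figure D1:**
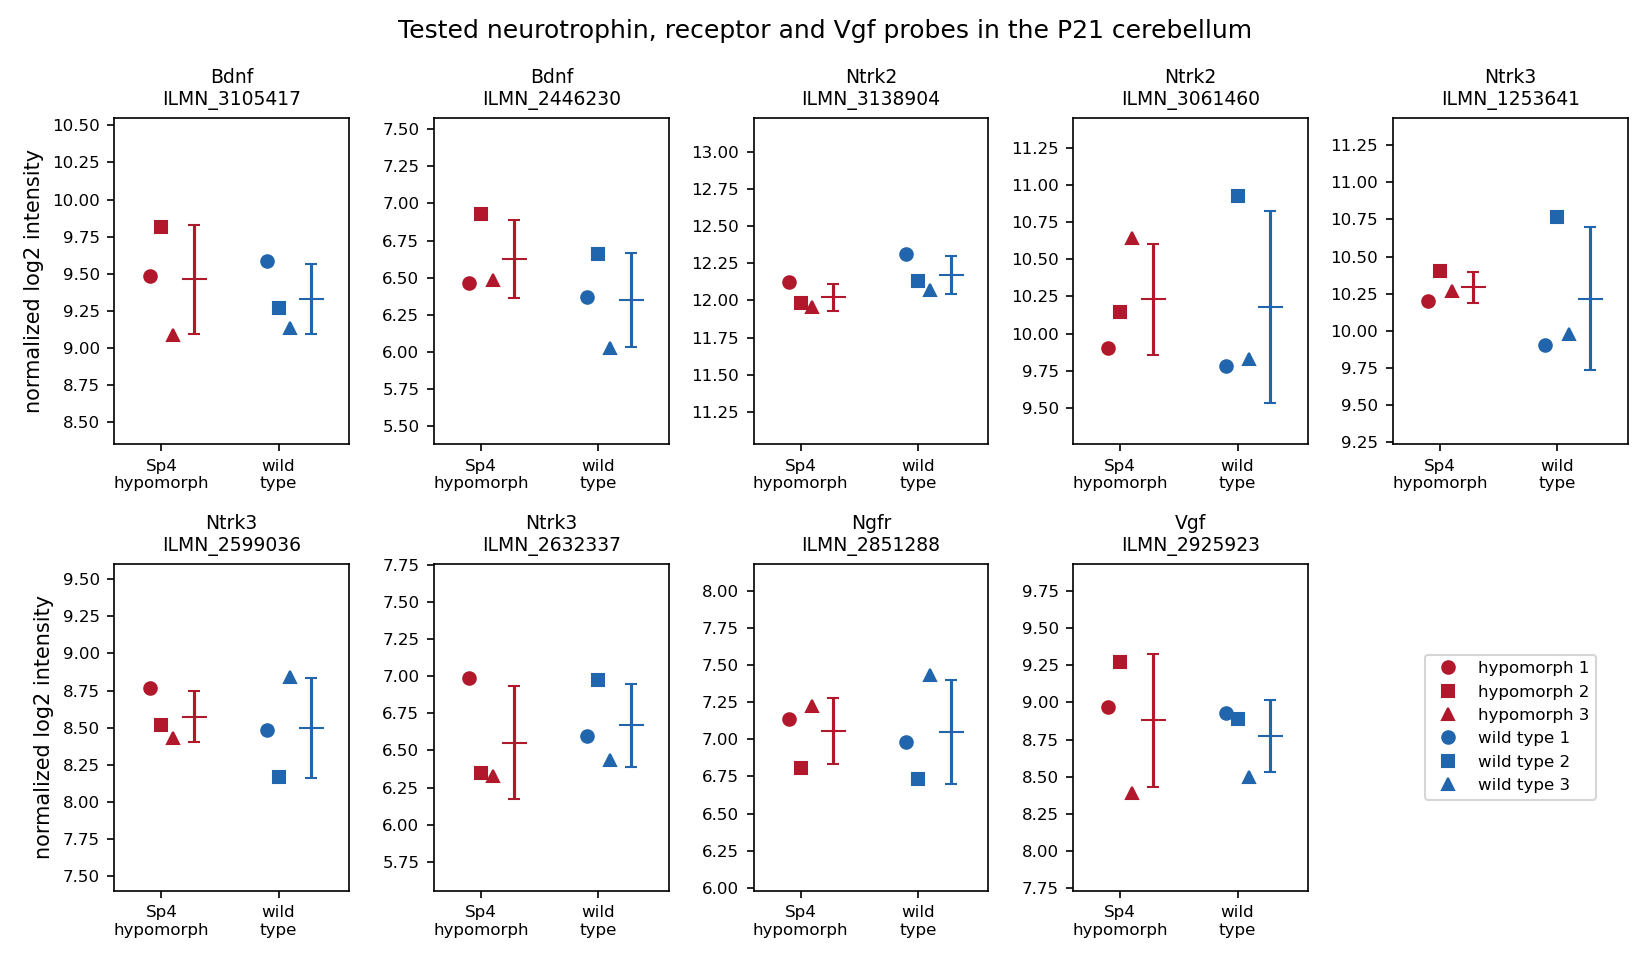
Normalized log2 intensity (vertical axis, the same span in every panel) of the 9 tested probes on each array, with hypomorphs in red on the left and wild types in blue on the right of each panel, marker shapes giving the array number, and bars the mean ± SD of 3 arrays. The groups overlap in all 9 panels, and the widest spread is that of Ntrk2 probe ILMN_3061460, with wild type 2 at 10.93.

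Among the ligands, Bdnf was measured well above background by 1 probe and dimly by another. Probe ILMN_3105417 read 9.48, 9.82 and 9.09 in hypomorphs 1, 2 and 3, against 9.59, 9.27 and 9.13 in wild types 1, 2 and 3. Hypomorph 2 was the highest and hypomorph 3 the lowest of the 6, so the wild types lay inside the hypomorph range. The means were 9.46 ± 0.36 in hypomorphs and 9.33 ± 0.23 in wild types (SD, n = 3 each). Their log2 difference was 0.13 (SE 0.22, 95% interval -0.38 to 0.65, limma unadjusted p = 0.565, adjusted p = 0.999), an interval that runs from 0.768-fold to 1.56-fold.

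The dimmer Bdnf probe ILMN_2446230, which is assigned to another transcript of the gene, read 6.47, 6.93 and 6.49 in hypomorphs 1, 2 and 3, against 6.37, 6.66 and 6.03 in wild types 1, 2 and 3. Hypomorph 2 was again the highest array and wild type 3 the lowest. Its log2 difference of 0.28 (SE 0.21, 95% interval -0.22 to 0.77, limma unadjusted p = 0.233, adjusted p = 0.999) was the largest among the 9 tested probes. Both Bdnf probes therefore had their highest value on the same array, and the groups overlapped on both. On the dimmer probe the difference lay between the SD of the hypomorphs (0.26) and that of the wild types (0.32).

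Bdnf is transcribed from several start sites that splice different first exons to 1 coding exon, and the annotation spreads its 6 probes over 4 transcripts. The other 4 probes gave little signal. Probes ILMN_1255582, ILMN_1246842 and ILMN_1214228 were above background on 0 of the 6 arrays. Probe ILMN_2666980 was above background on hypomorph 2 only, with a detection p of 0.0481 there, and that is also the array with the highest Bdnf signal on the 2 tested probes.

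Ntf5, the second ligand of TrkB, had 1 probe, ILMN_2768390, which was above background on none of the 6 arrays. Its detection p ran from 0.185 to 0.394 in hypomorphs and from 0.0951 to 0.566 in wild types. A signal under background gives no level, so no fold is given for it.

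The TrkB gene Ntrk2 had the brightest signal of the group. Probe ILMN_3138904 was brighter than 92.1% of all tested probes, and read 12.13, 11.98 and 11.95 in hypomorphs 1, 2 and 3, against 12.31, 12.13 and 12.07 in wild types 1, 2 and 3. Hypomorphs 2 and 3 were the lowest arrays and wild type 1 the highest, with hypomorph 1 among the wild types. The log2 difference was -0.15 (SE 0.14, 95% interval -0.47 to 0.17, limma unadjusted p = 0.306, adjusted p = 0.999). Its spread over the 6 arrays (SD 0.13) was smaller than that of most probes: 15.8% of tested probes varied less.

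A second Ntrk2 probe, ILMN_3061460, is assigned to the same RefSeq transcript and behaved differently. It read 9.90, 10.14 and 10.64 in hypomorphs 1, 2 and 3, against 9.78, 10.93 and 9.83 in wild types 1, 2 and 3. Wild type 2 and hypomorph 3 stood above the other 4 arrays, and the highest value was 2.21-fold the lowest. The log2 difference between the genotypes was 0.05 (SE 0.34, 95% interval -0.75 to 0.85, limma unadjusted p = 0.885, adjusted p = 0.999), the least precise of the 9. Only 8.51% of tested probes varied as much or more over the arrays.

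Within each array the log2 ratio of the first Ntrk2 probe to the second was 2.22, 1.84 and 1.31 in hypomorphs 1, 2 and 3, against 2.53, 1.20 and 2.24 in wild types 1, 2 and 3. The ratio therefore varied within both genotypes, and the groups overlapped (difference -0.20, two-sided exact permutation p = 0.7, where groups of 3 cannot give a p under 0.1). Ntrk2 yields a full-length receptor with a kinase and truncated receptors without one, which are abundant in glia. The summed Bergmann glia and astrocyte markers were 103636 to 124855 in hypomorphs and 113304 to 131741 in wild types (linear normalized intensity, 9 of 9 markers tested, 8 of them lower in the hypomorph), and their part in the Ntrk2 values was not tested. No source used here says which form each probe reads.

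The remaining 2 Ntrk2 probes were dim. Probe ILMN_2705460, assigned to another RefSeq transcript, was above background on 0 of 3 hypomorph arrays and on 2 of 3 wild-type arrays. Its deposited intensity was 6.93, 18.1 and -13.0 in hypomorphs 1, 2 and 3, against 46.3, -8.35 and 75.01 in wild types 1, 2 and 3. Wild types 1 and 3 stood above all others, and wild type 2 lay among the hypomorphs, so the groups overlapped. No fold is given for it, since wild type 2 was itself under background, and the exact permutation test gave a two-sided p of 0.3. Probe ILMN_2553897 was above background on hypomorph 2 only (detection p 0.0342).

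The TrkC gene Ntrk3 was tested on 3 probes. Probe ILMN_1253641 read 10.20, 10.40 and 10.27 in hypomorphs 1, 2 and 3, against 9.90, 10.77 and 9.98 in wild types 1, 2 and 3. The hypomorphs lay close together, inside the wider range of the wild types, of which wild type 2 was the highest array and wild type 1 the lowest. The means were 10.29 ± 0.10 in hypomorphs and 10.22 ± 0.48 in wild types (SD, n = 3 each), a log2 difference of 0.08 (SE 0.24, 95% interval -0.49 to 0.64, limma adjusted p = 0.999).

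The other 2 Ntrk3 probes, both assigned to a second RefSeq transcript, did not follow the first. Probe ILMN_2599036 read 8.77, 8.52 and 8.43 in hypomorphs 1, 2 and 3, against 8.48, 8.17 and 8.84 in wild types 1, 2 and 3. Here wild type 2 was the lowest array, where it was the highest on the first probe. Probe ILMN_2632337 read 6.99, 6.35 and 6.32 in hypomorphs 1, 2 and 3, against 6.60, 6.98 and 6.43 in wild types 1, 2 and 3. Hypomorph 1 and wild type 2 were nearly equal at the top. The log2 differences of these probes were 0.08 (SE 0.20) and -0.12 (SE 0.23), with unadjusted p of 0.715 and 0.631 and adjusted p of 0.999 for both in limma.

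Ntrk3 also makes receptors with and without a kinase. Within arrays the log2 ratio of probe ILMN_1253641 to probe ILMN_2599036 was 1.44, 1.88 and 1.84 in hypomorphs 1, 2 and 3, against 1.42, 2.60 and 1.14 in wild types 1, 2 and 3. Wild types 2 and 3 gave the highest and the lowest ratio, and the hypomorphs lay between them. The difference of the mean ratios was -0.001 with a two-sided exact permutation p of 1. Wild type 2, the array with the highest Ntrk2 probe ILMN_3061460 and the highest Ntrk3 probe ILMN_1253641, also had the highest summed granule cell markers, which were 52978 to 66165 in hypomorphs and 52589 to 72661 in wild types over 7 markers (linear normalized intensity). Hypomorph 2 came next in that sum, before hypomorph 3. By the mean log2 of the same 7 markers wild type 2 was again first (11.42), but hypomorph 3 (11.30) came before hypomorph 2 (11.17). The part of granule cell content in these receptor values was not tested.

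Ngfr, the gene of the p75 receptor, was detected on 1 of its 3 probes. Probe ILMN_2851288 read 7.14, 6.81 and 7.22 in hypomorphs 1, 2 and 3, against 6.99, 6.73 and 7.43 in wild types 1, 2 and 3. Both arrays numbered 2 were low and both numbered 3 were high. The means were 7.06 ± 0.22 in hypomorphs and 7.05 ± 0.35 in wild types (SD, n = 3 each). The log2 difference of 0.01 (SE 0.21, 95% interval -0.49 to 0.51, limma unadjusted p = 0.975, adjusted p = 0.999) was smaller than that of 97.2% of tested probes, and its interval runs from 0.711-fold to 1.42-fold. Probes ILMN_1231408 and ILMN_2635314 were above background on 0 of the 6 arrays, and no fold is given for them.

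Vgf encodes a secreted precursor of neuropeptides, stored in dense-core granules. Probe ILMN_2925923 read 8.97, 9.27 and 8.39 in hypomorphs 1, 2 and 3, against 8.93, 8.89 and 8.50 in wild types 1, 2 and 3. As for Bdnf, hypomorph 2 was the highest and hypomorph 3 the lowest array, with wild type 3 next to it. The log2 difference was 0.11 (SE 0.25, 95% interval -0.47 to 0.68, limma unadjusted p = 0.681, adjusted p = 0.999). The second Vgf probe, ILMN_1232310, was above background on 0 of the 6 arrays.

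**Figure D2:**
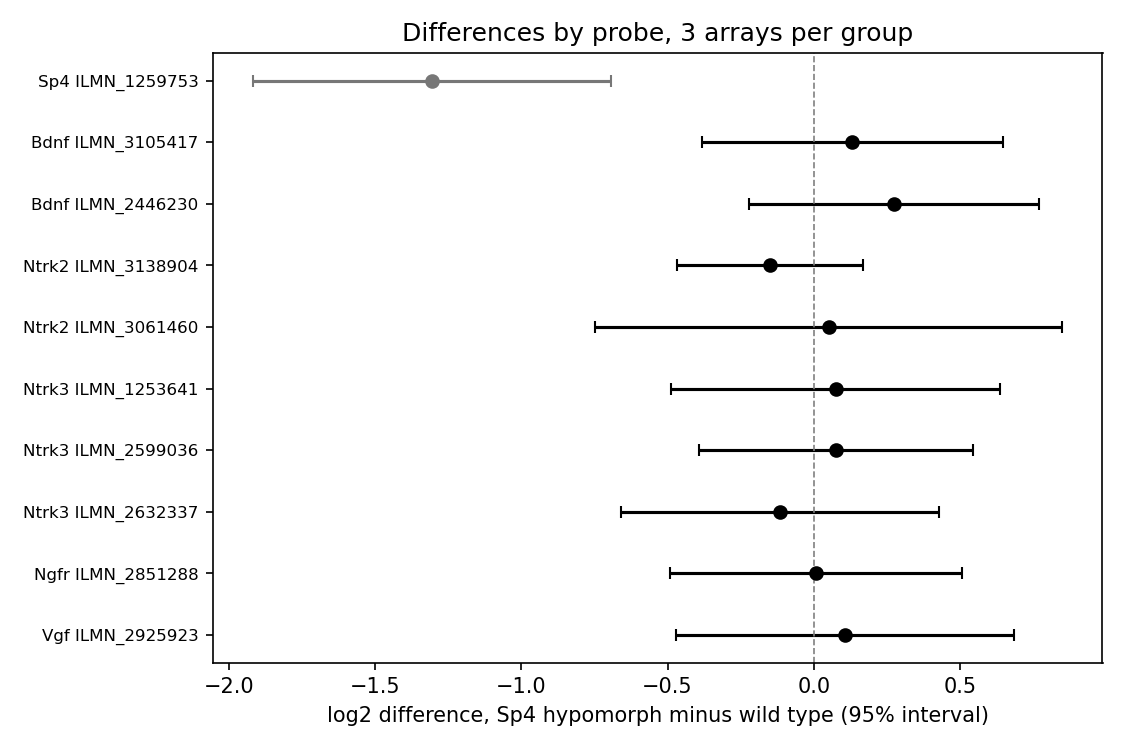
Log2 difference, Sp4 hypomorph minus wild type (horizontal axis), with its 95% interval from limma for Sp4 probe ILMN_1259753 (grey) and the 9 tested probes of Bdnf, Ntrk2, Ntrk3, Ngfr and Vgf (black), 3 arrays per group. The intervals of all 9 black probes contain 0, and the Sp4 interval lies below it. Sp4 probe ILMN_1253376, above background on no hypomorph array, is not drawn.

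By their brightest tested probes, Bdnf and Vgf varied together over the arrays more closely than any other pair of these genes. Over the 6 arrays these probes gave Pearson's r = 0.94 (exact permutation p = 0.0028) and Spearman's rho = 0.94 (exact permutation p = 0.017), both two-sided. After Benjamini-Hochberg adjustment over the 10 pairs of the 5 tested genes the p-values were 0.028 and 0.17. The permutations took the 6 arrays as exchangeable, though the deviations of same-numbered arrays correlated at 0.44, 0.40 and 0.06. These p-values may therefore be too small. Without hypomorphs 2 and 3, the arrays farthest from the median of Bdnf, r was 0.82 over the remaining 4. A group of 3 arrays is too small to give the relation within a genotype. Of 11746 tested probes with an SD of at least 0.2 over the arrays, 34 (0.289%) had an r with Bdnf at least as high, Vgf among them. The 2 tested Bdnf probes correlated with each other at only r = 0.62 over the 6 arrays. The relation to Vgf is given for the brighter of them alone.

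The order of the arrays in Bdnf and Vgf was not particular to these genes. The named genes most like Bdnf were Pcnp, Actb and Zfp276, each with r = 0.98 over the 6 arrays. Actb encodes the cytoskeletal protein beta-actin and read 12.24, 12.59 and 11.96 in hypomorphs 1, 2 and 3, against 12.29, 12.15 and 11.99 in wild types 1, 2 and 3. Hypomorph 2 was again the highest array and hypomorph 3 the lowest. The genes most like Vgf were Pdp2 and Fam174c, with r = 0.99 each, and Map7d2, with r = 0.98. These values are the highest among 9956 probes for Bdnf and 9957 for Vgf, all read on the same 6 arrays, and are given as a description.

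**Figure D3:**
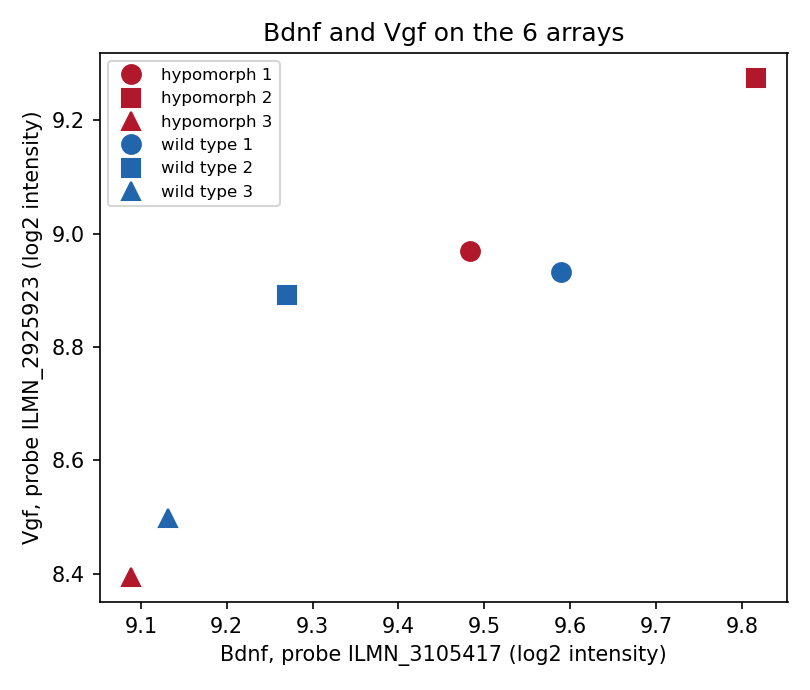
Log2 intensity of Vgf probe ILMN_2925923 (vertical axis) against Bdnf probe ILMN_3105417 (horizontal axis), 1 point per array, hypomorphs in red and wild types in blue, with marker shape giving the array number. Both arrays numbered 3 lie at the lower left, and hypomorph 2 lies at the upper right.

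The other pairs were looser: r for the remaining 9 ran from -0.75 (Ngfr and Vgf) to 0.27 (Ntrk3 and Vgf), with adjusted p of 0.398 or more. Bdnf and the gene of its receptor, Ntrk2, gave r = 0.24 and rho = 0.37 (exact permutation p = 0.651 and 0.497).

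Genes that act around the neurotrophins were described by lists, which were chosen with earlier results of these data known. The counts in these lists, beside the shares of all tested probes, are therefore a description and no test. Among 12 tested genes that process, sort or release neurotrophins, 4 were higher and 8 lower in the hypomorph, with a median log2 difference of -0.01. None of the 12 passed after adjustment (0% of all tested probes did), 2 had a higher value at an unadjusted p under 0.05 (2.49% of all tested probes) and 0 a lower one (2.82%). The leading gene was Serpini1, which encodes neuroserpin, an inhibitor of tissue plasminogen activator. Serpini1 read 11.73, 11.08 and 11.38 in hypomorphs 1, 2 and 3, against 10.68, 10.31 and 10.37 in wild types 1, 2 and 3. Every hypomorph lay above every wild type, and the log2 difference was 0.94 (SE 0.20, 95% interval 0.47 to 1.41), or 1.92-fold. It did not pass after adjustment (limma unadjusted p = 0.00193, adjusted p = 0.369).

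Mmp9, a matrix metalloprotease able to cut the Bdnf precursor, read 7.42, 7.04 and 7.05 in hypomorphs 1, 2 and 3, against 6.92, 6.37 and 6.84 in wild types 1, 2 and 3. Its groups did not overlap either, with a log2 difference of 0.46 (SE 0.20, limma unadjusted p = 0.0490, adjusted p = 0.934). Plat, the plasminogen activator that Serpini1 inhibits, differed by -0.07 (SE 0.12), and Furin, a protease that matures neurotrophin precursors, by 0.14 (SE 0.16). Both were named after their values were seen. Cadps2, a priming factor for the release of Bdnf from granule cells, differed by -0.01 (SE 0.22) and was also named after its value was seen. The groups did not overlap for 3 of the 12 genes, where 10.5% of all tested probes had such groups. These were Serpini1 and Mmp9, higher in the hypomorph, and Plat, lower in the hypomorph by a narrow gap.

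Among 10 tested partners of the p75 receptor, 6 were higher and 4 lower, with a median log2 difference of 0.05. None passed after adjustment (0% of all tested probes did). Unadjusted p lay under 0.05 for 0 higher genes (2.49% of all tested probes) and 1 lower gene (2.82%). The lower one was Irak1, a signalling kinase of the interleukin-1 receptor family pathway that also binds p75 complexes, at 9.37 ± 0.09 in hypomorphs and 9.79 ± 0.26 in wild types (SD, n = 3 each). Its log2 difference was -0.42 (SE 0.17, limma unadjusted p = 0.0397, adjusted p = 0.903), and its other tested probes differed by -0.31 and -0.09. Rtn4r, the Nogo receptor that pairs with p75, differed by 0.56 (SE 0.27), with overlapping groups. Sort1, which encodes sortilin, the co-receptor of p75 for neurotrophin precursors, stood in both of these lists. It differed by -0.25 (SE 0.15, limma unadjusted p = 0.138), and its 4 tested probes were all lower, by -0.08 to -0.33.

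The intracellular side of Trk signalling showed small differences. Of 29 tested adaptors and kinases, 15 were higher and 14 lower, with a median of 0.003 and a range from -0.34 to 0.25. None passed after adjustment (0% of all tested probes did). An unadjusted p under 0.05 was found for 0 higher genes (2.49% of all tested probes) and 1 lower gene (2.82%). That gene was Pik3cb, a catalytic subunit of phosphoinositide 3-kinase, at 9.90 ± 0.09 in hypomorphs and 10.23 ± 0.09 in wild types (SD, n = 3 each). Its log2 difference was -0.34 (SE 0.13, limma unadjusted p = 0.0339, adjusted p = 0.900). Pdpk1, the kinase that acts below it, differed by 0.25 (SE 0.15) on its brightest tested probe and by 0.08 (SE 0.15) on the other, and Creb1, a transcription factor at the end of the cascade, by 0.25 (SE 0.16).

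**Figure D4:**
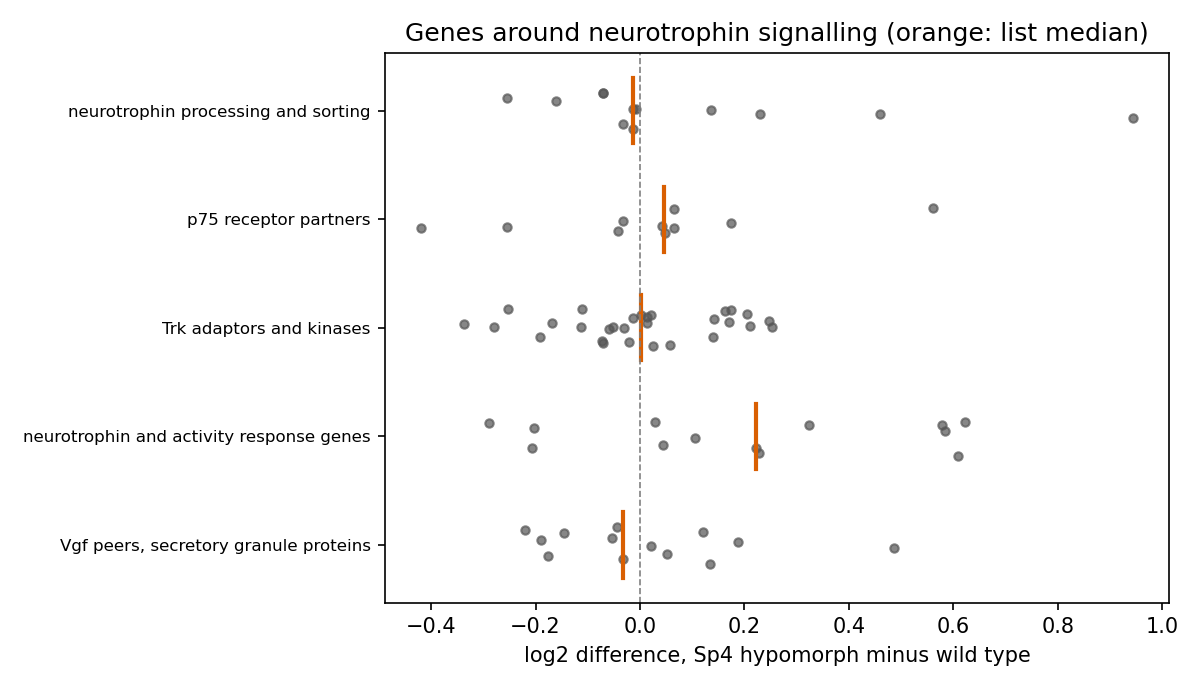
Log2 difference, Sp4 hypomorph minus wild type (horizontal axis), of the brightest tested probe of each gene in 5 lists around neurotrophin signalling, 1 grey point per gene, with the list median in orange. The medians lie between -0.03 and 0.22, and the point farthest from 0 is Serpini1 at 0.94.

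Genes that respond to neurotrophins and to neuronal activity had higher values in 10 of 13 tested members and lower ones in 3, where 50.2% of all tested probes were higher, with a median log2 difference of 0.22. None passed after adjustment. An unadjusted p under 0.05 was found for 1 higher and 0 lower genes, where 2.49% and 2.82% of all tested probes were higher and lower at that threshold. The median was 0.05 when the arrays were weighted by quality and 0.14 with the authors' processed values. Spry4, an inhibitor of the Ras to MAP kinase pathway, was at 7.35 ± 0.49 in hypomorphs and 6.74 ± 0.21 in wild types (SD, n = 3 each), a log2 difference of 0.61 (SE 0.26, limma unadjusted p = 0.0490, adjusted p = 0.934). Its groups overlapped. Egr1, an immediate early transcription factor, differed by 0.32 (SE 0.16), and Dusp1, a phosphatase of MAP kinases, by 0.62 (SE 0.33). Dusp1 read 12.11, 12.34 and 12.43 in hypomorphs 1, 2 and 3, against 11.49, 11.07 and 12.45 in wild types 1, 2 and 3, so that wild type 3 lay above every hypomorph. Its difference was 1.01 without wild type 3 and 0.32 without wild type 2, and that of Egr1 was 0.20 without wild type 2. Arc, an activity-induced synaptic protein named after its value was seen, went the other way with -0.29 (SE 0.20).

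The secretory granule proteins that accompany Vgf were level between the genotypes by their median. Of 13 tested genes, 6 were higher and 7 lower, with a median of -0.03. None passed after adjustment (0% of all tested probes did). An unadjusted p under 0.05 was found for 1 higher gene (2.49% of all tested probes) and 0 lower genes (2.82%). The higher one was Sst, the neuropeptide somatostatin, with 8.37, 8.85 and 8.31 in hypomorphs 1, 2 and 3, against 8.02, 7.83 and 8.23 in wild types 1, 2 and 3. All hypomorphs lay above all wild types, by a narrow gap, with a log2 difference of 0.49 (SE 0.19, limma unadjusted p = 0.0381, adjusted p = 0.903). Scg5, a chaperone of the convertase Pcsk2, differed by -0.18 (SE 0.13), and Chga, chromogranin A, by -0.19 (SE 0.15), while the other 2 tested Chga probes differed by -0.33 and 0.06.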

How the data were processed

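Cerebellar RNA of 3 Sp4 hypomorphs and 3 wild types was labelled with biotin and read on bead arrays. Per the submitters' processing notes BeadStudio was used. No source used here gives its version, its background method or a genome build. The authors deposited non-normalized intensity values, which are linear and include values below 0, and, beside each intensity, a detection p-value. Their second deposited table holds processed intensity values with nearly equal distributions and no stated method, and served as an alternative.

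The neqc function of limma 3.58.1 (R 4.3.3) corrected background from the detection p-values, added an offset of 16, equalised quantiles and took log2. The offset shrinks differences of dim probes, and a shift of most transcripts one way would not be seen. A probe entered the test if its detection p was below 0.05 on 3 or more arrays. Hypomorph minus wild type was fitted with lmFit and eBayes, with no block, and Benjamini-Hochberg adjusted p-values below 0.05 counted as passing. The fit was tested on simulated data. The design describes pairs of mice, and each array was taken as 1 animal.

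The platform annotation gave 34885 probes 1 gene symbol, 18 several and 10378 none, and the gene table of GRCm38.p6 altered 0 symbols. A list gene stood by its brightest tested probe. The genes named were the 6 members, Sp4, the 3 genes of each pathway list with the smallest unadjusted p, and the 3 genes most correlated with Bdnf and with Vgf. The members, lists and tests were chosen with earlier results of these data known, and the lists were written from textbook knowledge. Array numbers were not used as pairs: the deviations of same-numbered arrays correlated at 0.44, 0.40 and 0.06. Alternatives changed the values (uncorrected background, scaling to the median, offset 50, the authors' processed table), the filter (none, or detection on all 6 arrays), the model (replicate block, robust variance trend, quality weights) and the arrays (each left out once), and for the lists took the mean over probes.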

Additional observations from a re-analysis of the deposited data

How the results depend on the processing

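Over 15 other settings, 0 of the tested probes of Bdnf, Ntrk2, Ntrk3, Ngfr and Vgf, 0 Sp4 probes and, in the settings run for the pathway lists, 0 list genes passed an adjusted p of 0.05. The count over all tested probes, 0 as reported, became 2 with the replicate block, 5 without background correction, 5 with an offset of 50, 8 with the authors' processed values, 3 among probes detected on all 6 arrays, 8 with a variance trend and 13 with array weights, and 0 to 2 when an array was left out (2 without wild type 3, 1 without hypomorph 2). The cause was not tested. The labels do not say that the array number marks a litter, and the block changed no call of the member or Sp4 probes. Every array nevertheless correlated best with the array of its own number in the other genotype. The design describes pairs of mice, but the labels do not link the numbers to them. The main fit and all exact permutation tests took the arrays as unpaired.

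Several log2 differences changed sign, and the cause was not tested. With median scaling Ngfr stood at -0.052, Ntrk2 probe ILMN_3061460 at -0.028 and Ntrk3 probe ILMN_2599036 at -0.015. Ngfr was -0.00095 with the authors' processed values and -0.13 with array weights, where Ntrk3 probe ILMN_2599036 was -0.17. Leaving out an array gave -0.045 to 0.32 for Bdnf probe ILMN_3105417, -0.15 to 0.20 for Ngfr, -0.15 to 0.42 for Ntrk2 probe ILMN_3061460 and -0.092 to 0.35 for Vgf. For Ntrk3 it gave -0.082 to 0.35 on probe ILMN_1253641, -0.089 to 0.25 on ILMN_2599036 and -0.33 to 0.037 on ILMN_2632337. Bdnf probe ILMN_2446230 (0.11 to 0.43) and Ntrk2 probe ILMN_3138904 (-0.21 to -0.08) kept their sign in all settings, as did Serpini1 (0.78 to 1.102, lowest adjusted p 0.0992). With the authors' processed values Sp4 probe ILMN_1259753 stood at -0.60, Mmp9 at 0.22, Rtn4r at 0.21 and Spry4 at 0.32. The r of Bdnf with Vgf, on their brightest tested probes, was 0.94 in the 4 other processings. Among the other list genes named, leaving out an array gave 0.29 for Mmp9 and -0.27 for Irak1 (both without wild type 2), 0.33 and 0.36 for Rtn4r (without hypomorph 3 and wild type 1), 0.14 and 0.37 for Creb1 (without wild types 1 and 2), 0.32 for Sst (without hypomorph 2), and -0.09 and -0.29 for Chga (without hypomorphs 2 and 1). Dim probes give no more than a bound, and those above background on no array, among them the only one of Ntf5, give none.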
